A study of Mus musculus with 4 samples.

Results

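H19, Igf2 and the genes of the insulin-like growth factor (IGF) axis were followed in RNA from 4 mouse liver tumours. The 10 genes were taken by symbol: the non-coding RNA H19, the ligands Igf2 and Igf1, the receptors Igf2r, Insr and Igf1r, and the binding proteins Igfbp1, Igfbp2, Igfbp3 and Igfbp4. They are 10 of the 24063 gene symbols in the deposited tables, and all 10 are among the 13129 genes with a mean of at least 1 CPM (counts scaled to a library of 1000000), called expressed here. Where a gene has several transcript rows, the one with the highest mean over the tumours stands for it, and the separate Igf2 rows are described as well.

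The 4 samples form 1 group. They are tumours of C57BL/6 mice (the titles write C57BL6/J) that overexpress MYC and PMEPA1, an oncogenic transcription factor and a membrane protein that dampens TGF-beta signalling. Genes were delivered by hydrodynamic injection into the tail vein, a method that carries DNA mainly into hepatocytes, the animals received no treatment, and the study's design text calls the tumours hepatocellular carcinomas. The tumours carry the numbers 1, 5, 9 and 10, and a label on each gives 8 to 10 passages without saying of what. No sample without the 2 genes was analysed here, so the comparisons are between tumours and between genes, and the labels do not say that the tumours came from separate animals. P-values therefore measure the spread between these libraries, which may be technical.

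The libraries held between 41547938 and 51939623 gene counts. CPM values were scaled by TMM, whose factors ran from 0.802 in tumour 10 to 1.10 in tumour 1, and 3 counts corresponded to between 0.0524 and 0.0892 CPM. All 10 hepatocyte markers were above 3 counts in all 4 tumours, with albumin (Alb) at 4732, 4520, 5594 and 13400 CPM in tumours 1, 5, 9 and 10. The mouse Myc row had between 4.86 and 8.58 CPM and the mouse Pmepa1 row between 0.922 and 7.28 CPM, and the sources used here do not say from which species the delivered sequences came.

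IGF2 and IGF1 are secreted growth factors that act through IGF1R, a tyrosine kinase receptor related to the insulin receptor INSR, whereas IGF2R takes IGF2 up for breakdown in lysosomes. The IGF-binding proteins hold most circulating IGF and set how much reaches the receptors. Igf2 and H19 lie next to each other and are imprinted: Igf2 is transcribed from the paternal and H19 from the maternal chromosome, both from shared enhancers, with a CTCF-bound control region between them. In the mouse Igf2r is imprinted too, and is transcribed mainly from the maternal chromosome. Fetal liver makes much H19 and Igf2, while adult mouse liver makes little of either and is the main source of circulating IGF1.

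Both genes of the imprinted pair hold a microRNA hairpin with a row of its own in the deposited tables. The Mir675 hairpin, whose row has the far larger count, and the mature arms of both are printed here. Mir675 lies in exon 1 of H19 (chr7:142577064-142577147, minus strand) and Mir483 in intron 2 of Igf2 (chr7:142654924-142654996, minus strand). The sequences are from RefSeq (GRCm38.p6), 5′ to 3′. In the hairpin the capitals mark the mature arms, and in the mature microRNAs they mark the seed, bases 2 to 8.
Mir675 hairpin: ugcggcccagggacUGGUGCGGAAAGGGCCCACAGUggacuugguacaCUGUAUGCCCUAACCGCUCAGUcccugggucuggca
mmu-miR-675-5p: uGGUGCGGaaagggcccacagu
mmu-miR-675-3p: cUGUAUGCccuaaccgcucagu
mmu-miR-483-5p: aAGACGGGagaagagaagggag
mmu-miR-483-3p: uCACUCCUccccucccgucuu
The 4 seeds differ from each other, and each is held by 1 mature microRNA of the table.

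The deposited Igf2 rows end alike and differ in their first exon, so the starts of NM_010514 and NM_001122737, whose difference is used below, are shown. Each stretch runs from 250 bases before to 50 bases after the annotated start (RefSeq, GRCm38.p6, minus strand, 5′ to 3′). With the annotated exons these starts give transcripts of 4037 and 3708 bases, against deposited row lengths of 4038 and 3691, so the rows may start some bases away from the sites shown. For the third row, NM_001122736, the annotated start gives 3936 bases against a deposited 3701, and no sequence is shown. The capitals mark GGGCGG, the GC box, and ATAAAA, both searched on both strands. The promoter table held entries for 8 of the 10 genes.
Igf2 NM_010514 start, chr7:142658755-142659054: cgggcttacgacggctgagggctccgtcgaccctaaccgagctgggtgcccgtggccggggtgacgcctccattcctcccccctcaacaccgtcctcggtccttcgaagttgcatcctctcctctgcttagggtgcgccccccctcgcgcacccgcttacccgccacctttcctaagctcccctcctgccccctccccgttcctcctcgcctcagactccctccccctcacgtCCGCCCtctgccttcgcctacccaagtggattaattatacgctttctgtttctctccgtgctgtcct
Igf2 NM_001122737 start, chr7:142657447-142657746: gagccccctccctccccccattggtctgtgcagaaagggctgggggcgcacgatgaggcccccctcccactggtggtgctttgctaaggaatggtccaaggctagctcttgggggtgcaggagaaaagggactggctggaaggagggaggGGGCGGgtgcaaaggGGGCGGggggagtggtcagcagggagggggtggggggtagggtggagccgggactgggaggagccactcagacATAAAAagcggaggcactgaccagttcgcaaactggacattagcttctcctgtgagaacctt
The window of NM_001122737 held 2 GC boxes and 1 ATAAAA, and that of NM_010514 held 1 GC box, on the other strand. Of the 32851 promoter windows in the table, 35.7% held GGGCGG and 18.5% held ATAAAA. The G and C content was 64.7% for NM_010514 and 63.3% for NM_001122737, against a median of 52.7% over all windows.

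H19 and Igf2 had the highest levels of the axis in every tumour, while Igf1r, a signalling receptor for IGF2, was the lowest of the 10. Per kilobase of transcript row, the mean level was 10767 CPM per kilobase for H19 and 1429 for Igf2, followed by 397 for Igfbp4, 373 for Igfbp1, 37.2 for Igfbp2, 28.9 for Igfbp3, 20.2 for Igf2r, 10.2 for Insr, 4.57 for Igf1 and 0.340 for Igf1r. H19 was above Igf2, and Igf2 above all 8 others, in 4 of 4 tumours, but in tumour 9 Igf2 (1021 CPM per kilobase) was close to Igfbp1 (969). Among neighbours in this order, the ranges over the tumours overlapped for Igfbp4 with Igfbp1, for Igfbp2 with Igfbp3 and for Igfbp3 with Igf2r, and these do not differ beyond their spread. The place of Igfbp2 rests on tumour 1. It had 113, 18.8, 1.23 and 15.4 CPM per kilobase in tumours 1, 5, 9 and 10, against 18.0, 23.7, 23.8 and 15.5 for Igf2r. In tumour 9 Igfbp2 was also below Insr (11.1) and Igf1 (5.75). The row length used for H19, 2615 bases, equals the whole span of the gene, introns included, and the longest spliced transcript of the gene in GENCODE M21 has 2286 bases.

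**Figure D1:**
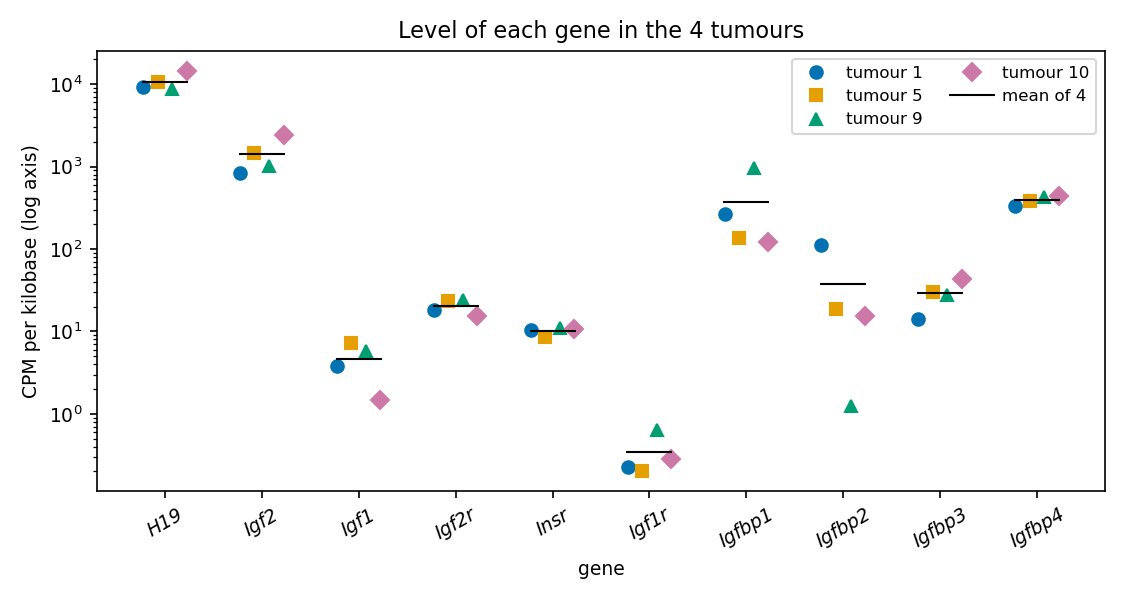
Level of each of the 10 genes in CPM per kilobase of transcript row (log axis), with 1 symbol per tumour and a bar for the mean of 4. H19 and Igf2 lie above the 8 others in every tumour, with Igfbp1 close to Igf2 in tumour 9, Igfbp2 covers the widest range and Igf1r lies lowest.

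All 10 genes differed between the tumours beyond counting error, as did 98.7% of all expressed genes, by a Poisson heterogeneity chi-square test with Benjamini-Hochberg adjustment over 13129 genes (largest adjusted p of the 10, for Insr, 1.5e-29). With a further 20% variation allowed between libraries, 6 of the 10 did (Igf2, Igf1, Igf1r, Igfbp1, Igfbp2 and Igfbp3), against 39.4% of all expressed genes. The SD of log2 CPM over the 4 tumours was at least 1 for 3 of the 10, Igf1, Igfbp1 and Igfbp2, against 16.6% of all expressed genes. The median SD was 0.67 for the 10 genes and 0.45 for all expressed genes. Igf1 is at the edge of this class: its SD was 1.01, and 0.47 without tumour 10 and 0.997 without tumour 5. A shorter transcript row of Igf1, described below, had an SD of 0.83. Without tumour 9 the SD of Igfbp1 was 0.64, and that of Igfbp2 was at least 1.60 without any 1 tumour.

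**Figure D2:**
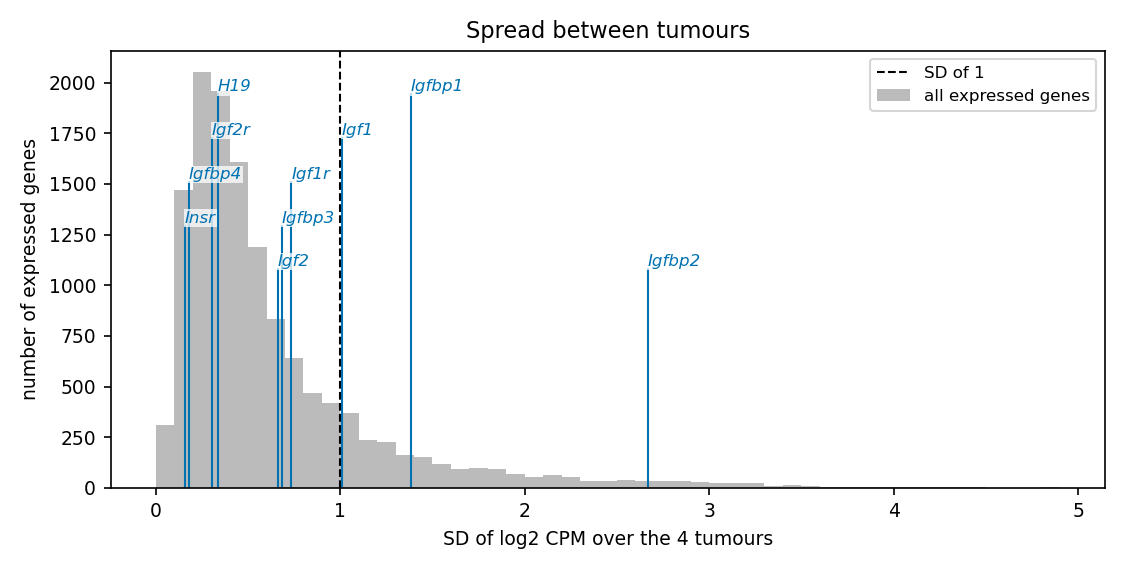
Number of expressed genes (vertical axis) by the SD of log2 CPM over the 4 tumours (horizontal axis), with the 10 genes marked by vertical lines of arbitrary height and an SD of 1 by the dashed line. Insr, Igfbp4, Igf2r and H19 lie on the left, and Igf1, Igfbp1 and Igfbp2 lie to the right of the dashed line.

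H19 is a spliced, polyadenylated non-coding RNA (NR_001592, minus strand of chromosome 7, 142575529 to 142578143, GRCm38). It had 23866, 28060, 22651 and 38040 CPM in tumours 1, 5, 9 and 10, averaging 28154 ± 6986 CPM (SD, n = 4), from at least 1201791 counts in each, and ranked 1 among the expressed genes by mean level. Tumour 10 was highest and tumours 1 and 9 lay close together, with a ratio of highest to lowest of 1.68. With the 20% allowance its spread did not pass the test (adjusted p = 0.277 by the Poisson heterogeneity chi-square test over 13129 genes).

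The size of this difference depends on scaling. With total counts in place of TMM, the median gene shifts on the log2 scale by 0.14 in tumour 1, 0.04 in tumour 5, 0.13 in tumour 9 and -0.32 in tumour 10. On that scale H19 had 26299, 28925, 24872 and 30499 CPM in tumours 1, 5, 9 and 10. Tumour 10 remained highest and tumour 9 lowest, but the ratio was 1.23. Igf2 kept tumour 10 highest and tumour 1 lowest, with a ratio of 2.06 by total counts and 2.84 by TMM.

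**Figure D3:**
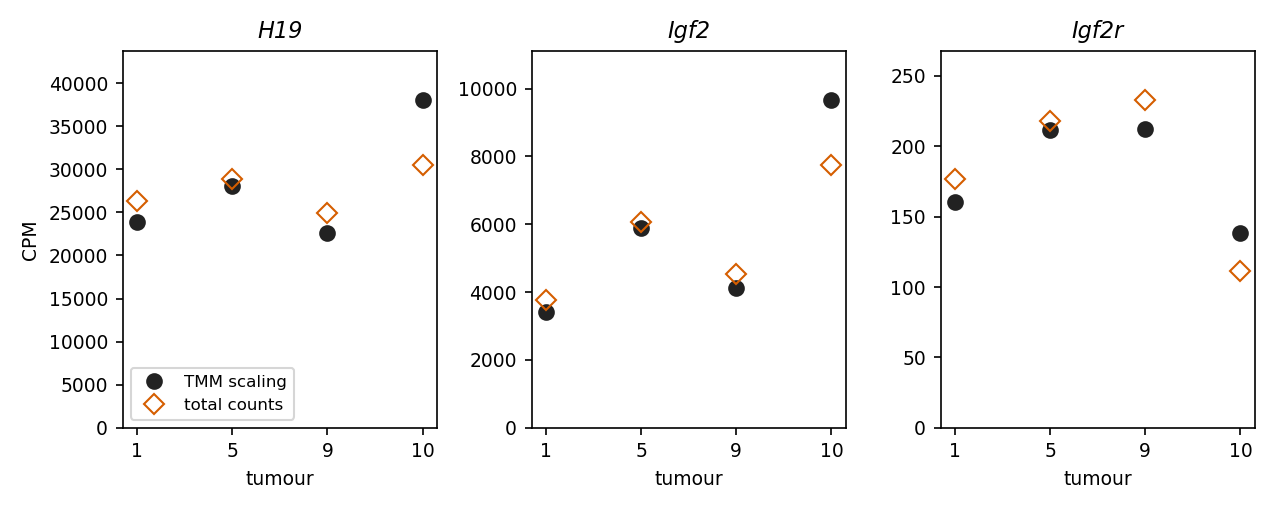
CPM of H19, Igf2 and Igf2r in the 4 tumours (linear axes from 0), scaled by TMM (filled circles) and by total counts (open diamonds). Tumour 10 is highest for H19 and Igf2 and lowest for Igf2r on both scales, and total-count scaling brings its H19 and Igf2 values closer to the others.

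Igf2, the fetal growth factor (NM_010514, minus strand of chromosome 7, gene span 142650766 to 142666816), had 3409, 5890, 4121 and 9667 CPM in tumours 1, 5, 9 and 10, averaging 5772 ± 2799 CPM (SD, n = 4). It ranked 5 among the expressed genes. The tumours came in the order 10, 5, 9, 1, and the spread passed the test with the 20% allowance (adjusted p = 3.4e-04, Poisson heterogeneity chi-square test over 13129 genes).

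H19 and Igf2 were both highest in tumour 10, and their ratio within a library, which no scaling alters, ran against the level of Igf2, which is its denominator. Per kilobase, H19 stood over Igf2 by 10.8, 7.36, 8.49 and 6.08 times in tumours 1, 5, 9 and 10, a mean of 8.18 ± 2.01 (SD, n = 4). The ratio was highest in tumour 1, where Igf2 was lowest, and lowest in tumour 10, where Igf2 was highest. The SD of its log2 was 0.35, and the mean log2 lay between 2.86 and 3.13 with any 1 tumour left out.

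The 3 Igf2 rows carried nearly the same counts, since they share the coding exons and the 3′ end. NM_010514 (4038 bases) had 195084, 252248, 221435 and 325130 counts in tumours 1, 5, 9 and 10. NM_001122736 (3701 bases) had 190898, 247464, 219274 and 323860 counts. NM_001122737 (3691 bases) had 190770, 247277, 219012 and 323607 counts. What the rows tell apart is their first exons, and only as a difference between leaders, because a read on shared exons was counted on every row.

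NM_010514 is 347 bases longer than NM_001122737 and held 4314, 4971, 2423 and 1523 more counts in tumours 1, 5, 9 and 10. That is 2.21%, 1.97%, 1.09% and 0.468% of its counts, a mean of 1.44 ± 0.80% (SD, n = 4). The share was lowest in tumour 10, which had the most Igf2 counts, and highest in tumour 1, which had the fewest. Over all expressed genes the log2 deviation from the 4-tumour mean correlated with row length. Spearman rho was 0.23 in tumour 1 and -0.27 in tumour 10, and the part of this trend in the share was not tested. The excess itself came to 75.4, 116, 45.1 and 45.3 CPM, so tumours 9 and 10 were close together in the excess and differed in the total. NM_001122736, 10 bases longer than NM_001122737, held between 128 and 262 more counts, or 0.0671% to 0.119% of its own.

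**Figure D4:**
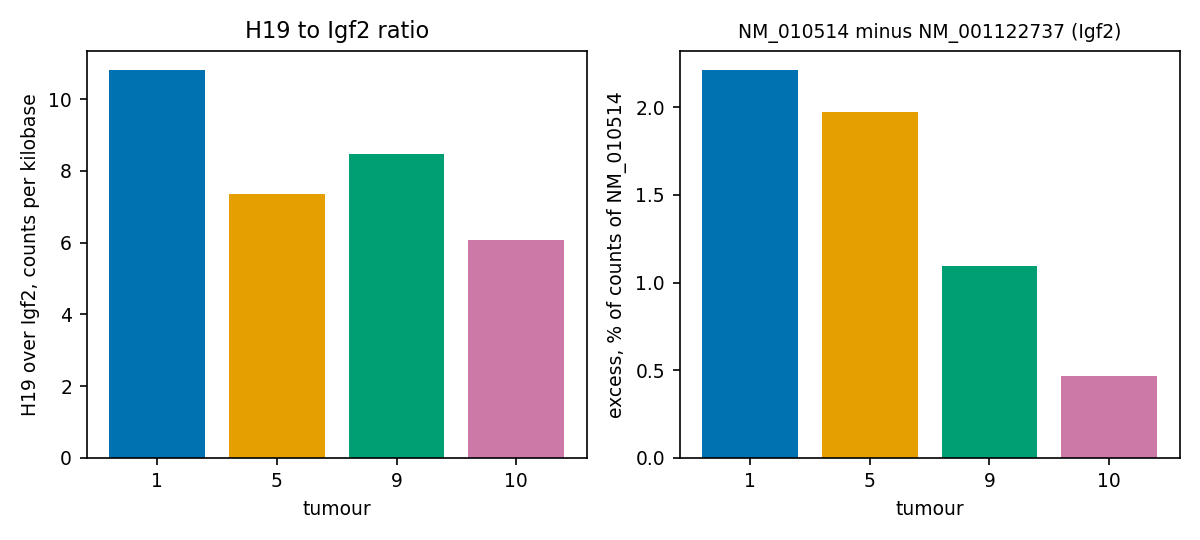
Left, ratio of H19 to Igf2 in counts per kilobase in each tumour; right, counts of the Igf2 row NM_010514 in excess of NM_001122737, as a percentage of the counts of NM_010514. Both are highest in tumour 1 (10.8 and 2.21%) and lowest in tumour 10 (6.08 and 0.468%).

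The Mir675 row had 148386, 112073, 122340 and 118625 counts in tumours 1, 5, 9 and 10, equal to 10.9%, 9.33%, 10.1% and 9.27% of the H19 counts. These are reads over the exon that contains the hairpin, and poly-A libraries do not measure the mature microRNAs printed above. The Mir483 row, in an Igf2 intron, had 74, 71, 66 and 31 counts, at most 0.0379% of the Igf2 counts. Igf2os, an antisense RNA that overlaps the annotated first exon of the Igf2 transcript NM_001122736 by 98 bases, had 89.3, 159, 92.9 and 70.5 CPM. Whether counting used strand is not given in the sources used here, so reads of these overlapping genes cannot be told apart. Igf2os was lowest in tumour 10, where Igf2 was highest.

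The genes nearest to the pair differed from each other in the order of their tumours. Mrpl23, a mitochondrial ribosomal protein gene next to H19, had 39.6, 39.4, 49.6 and 27.9 CPM in tumours 1, 5, 9 and 10 and was lowest where H19 was highest. Nctc1, a non-coding RNA between Mrpl23 and H19, had 0.105, 0.584, 0.261 and 4.01 CPM, from only 6, 25, 14 and 135 counts. That puts the tumours in the order 10, 5, 9, 1, as for Igf2. The share of all expressed genes with this order was not counted. Lsp1, a leukocyte actin-binding protein gene, had 2.76, 1.40, 8.49 and 2.11 CPM, highest in tumour 9. On the Igf2 side Ins2 and Th had no counts in any tumour. Of the 25 genes listed for the neighbourhood, 15 were expressed and all 15 differed beyond counting error, 9 of them with the 20% allowance and 3 with an SD of at least 1 (Nctc1, Lsp1 and Phlda2), against 98.7%, 39.4% and 16.6% of all expressed genes. Phlda2 and Cdkn1c, maternally expressed growth restrainers further along the imprinted domain, were lowest in tumour 10, with 27.8, 21.6, 15.7 and 5.05 CPM for Phlda2 and 108, 122, 237 and 50.5 CPM for Cdkn1c. Ctsd, a lysosomal protease gene and the most abundant of the list after Mir675, had 287, 418, 865 and 708 CPM.

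By root-mean-square difference of their log2 deviations over the 4 tumours, the expressed genes most like H19 were Sf3b6 (0.012), Snrpg (0.016), Hlcs (0.021), Mrpl27 (0.024) and Ncaph2 (0.026). Those most like Igf2 were Cox6c (0.048), Gabarapl1 (0.053), Rpl41 (0.058), Atp5l (0.068) and Iqsec2 (0.068). H19 and Igf2 themselves differed by 0.30 on this measure. Several of the genes named have short rows: the median row length was 1116 bases for the 5 like H19 and 513 bases for the 5 like Igf2, against 2756 bases for all expressed genes. Across the 13129 expressed genes the deviation correlated with row length at a Spearman rho of 0.23, 0.14, 0.06 and -0.27 in tumours 1, 5, 9 and 10, a description across the genes of each library. Short rows thus stood higher in tumour 10, the tumour with the most H19 and Igf2 by CPM. The H19 row has 2615 bases, near the median of all expressed genes, and the Igf2 row, with 4038, is longer. Hlcs (4833 bases), Ncaph2 (3340) and Iqsec2 (5208) also have rows longer than that median. The part of row length in these patterns was not tested.

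Igf1, the ligand made by adult liver under growth hormone (NM_010512, plus strand of chromosome 10, 87858265 to 87937042), ran the other way from Igf2 in tumour 10. It had 26.9, 51.8, 40.9 and 10.6 CPM in tumours 1, 5, 9 and 10, averaging 32.6 ± 17.8 CPM (SD, n = 4), from 1541, 2218, 2200 and 356 counts. Tumour 10 was lowest and tumours 5 and 9 highest, and the spread passed the test with the 20% allowance (adjusted p = 5.1e-04, Poisson heterogeneity chi-square test over 13129 genes). Per kilobase Igf2 exceeded Igf1 by 223, 201, 178 and 1611 times in tumours 1, 5, 9 and 10, so tumours 1, 5 and 9 lay close together and tumour 10 stood apart. The part of row length (7121 bases for Igf1, 4038 for Igf2) in this ratio was not tested.

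The 4 long Igf1 rows had nearly equal counts. The short row NM_184052 (1087 bases) had 9.52, 16.1, 17.0 and 4.94 CPM in tumours 1, 5, 9 and 10, from 545, 689, 912 and 166 counts. Tumour 10 was lowest for the short row as for NM_010512, and tumours 5 and 9 were highest for both. Per kilobase the short row held 501, 634, 839 and 153 counts, against 216, 311, 309 and 49.99 for NM_010512, so it was the denser row within each library.

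Igf1 was lowest where the summed hepatocyte markers were highest. The 10 hepatocyte markers summed to 11516, 12536, 17139 and 34440 CPM in tumours 1, 5, 9 and 10, and the 4 fetal liver markers to 2864, 5161, 5128 and 134 CPM. Among the hepatocyte markers Apoa1 (2072, 3086, 5779 and 3008 CPM) was highest in tumour 9. Cyp2e1 (205, 12.4, 6.66 and 203 CPM) was about equal in tumours 1 and 10, and the others were highest in tumour 10. Most of the fetal sum was Afp (1922, 3763, 4974 and 120 CPM), and the other 3 markers did not follow it in tumour 9. Lin28b (34.7, 14.8, 0 and 11.3 CPM) was lowest in tumour 9. Gpc3 (82.8, 73.4, 5.53 and 0.535 CPM) and Dlk1 (825, 1310, 149 and 2.41 CPM) were lower in tumour 9 than in tumours 1 and 5. Afp, Gpc3 and Dlk1 were lowest in tumour 10. Stellate cell and fibroblast markers (10 of 10 above 3 counts in all tumours) summed to 436, 314, 527 and 123 CPM, also lowest in tumour 10. In bulk samples, fewer cells of a type and less RNA per cell cannot be told apart. The part of these cell types in the Igf1 and Igf2 levels was not tested. Markers of skeletal muscle, a tissue that can make both H19 and Igf2, summed to 12.2, 0.700, 1.02 and 0.892 CPM in tumours 1, 5, 9 and 10. Nearly all of the sum in tumour 1 was Ckm (685 counts, 12.0 CPM). Acta1 had 9, 9, 5 and 11 counts, and the myosin gene Myh4 had 0 counts in all 4 tumours. The part of muscle in the H19 and Igf2 levels was not tested.

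Growth hormone induces Igf1 in liver through its receptor Ghr. Ghr, named here after its values were seen, had 74.0, 75.7, 61.7 and 139 CPM in tumours 1, 5, 9 and 10, and the part of this input in the Igf1 levels was not tested. Of 13 genes listed for this input, all 13 were expressed and differed beyond counting error, 9 with the 20% allowance and 2 with an SD of at least 1, against 98.7%, 39.4% and 16.6% of all expressed genes. Those 2 were Foxa1, a liver pioneer factor, with 15.3, 0.210, 0.223 and 14.6 CPM, and the prolactin receptor gene Prlr, with 3.67, 4.18, 0.0372 and 0.0595 CPM. Tumours 1 and 10 shared the higher Foxa1 values, tumours 1 and 5 the higher Prlr values. The most abundant, the hepatocyte factors Hnf4a (508, 567, 382 and 809 CPM), Cebpa (153, 109, 175 and 395 CPM) and Cebpb (74.8, 93.7, 104 and 246 CPM), were highest in tumour 10.

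Igf2r was the most abundant receptor per kilobase and Igf1r by far the least. Igf2r, the clearance receptor of IGF2 (NM_010515, minus strand of chromosome 17, 12682406 to 12769664), had 161, 211, 212 and 139 CPM in tumours 1, 5, 9 and 10, averaging 181 ± 37.0 CPM (SD, n = 4). It was lowest in tumour 10 and did not pass the test with the 20% allowance (adjusted p = 0.536, Poisson heterogeneity chi-square test over 13129 genes). Airn, the non-coding RNA antisense to Igf2r, had at most 135 counts on any of its rows in any tumour. Igf2 exceeded Igf2r by 46.9, 61.6, 43.0 and 154 times per kilobase in tumours 1, 5, 9 and 10, highest in tumour 10. The part of row length (8929 bases for Igf2r, 4038 for Igf2) in this ratio and in the Igf2r levels was not tested.

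Insr, the insulin receptor (NM_010568, minus strand of chromosome 8, 3122061 to 3279617), had the smallest SD of the 10 genes with TMM scaling. It had 96.5, 81.1, 104 and 100.3 CPM in tumours 1, 5, 9 and 10, averaging 95.4 ± 9.94 CPM (SD, n = 4), with an SD of 0.16 on the log2 scale. Its spread did not pass the test with the 20% allowance (adjusted p = 0.913, Poisson heterogeneity chi-square test over 13129 genes). By total counts its SD was 0.25, above those of H19 (0.13) and Igfbp4 (0.18), and the lowest tumour was 10 in place of 5.

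Igf1r, a signalling receptor of both ligands (NM_010513, plus strand of chromosome 7, 67952827 to 68233668), had 2.74, 2.45, 7.67 and 3.42 CPM in tumours 1, 5, 9 and 10, averaging 4.07 ± 2.43 CPM (SD, n = 4), from 157, 105, 412 and 115 counts. Tumour 9 was highest and the others lay close together. The spread passed the test with the 20% allowance (adjusted p = 2.3e-04, Poisson heterogeneity chi-square test over 13129 genes), but without tumour 9 it was not beyond counting error (adjusted p = 0.0682, SD 0.22). Tumour 9 also had the highest summed neutrophil (465 CPM, at most 21.6 elsewhere), macrophage and Kupffer cell (498, at most 290.4 elsewhere) and erythroid markers (685, at most 113 elsewhere), whose part in the Igf1r level was not tested. Within the macrophage and Kupffer cell list, Clec4f (20.7 CPM in tumour 1 and 0.744 in tumour 9), Marco (8.67 and 2.68) and Timd4 (1.80 and 0.316) were highest in tumour 1. Per kilobase, Insr exceeded Igf1r by 45.0, 42.4, 17.3 and 37.6 times, and Igf2r exceeded it by 78.6, 116, 37.1 and 54.4 times, in tumours 1, 5, 9 and 10.

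**Figure D5:**
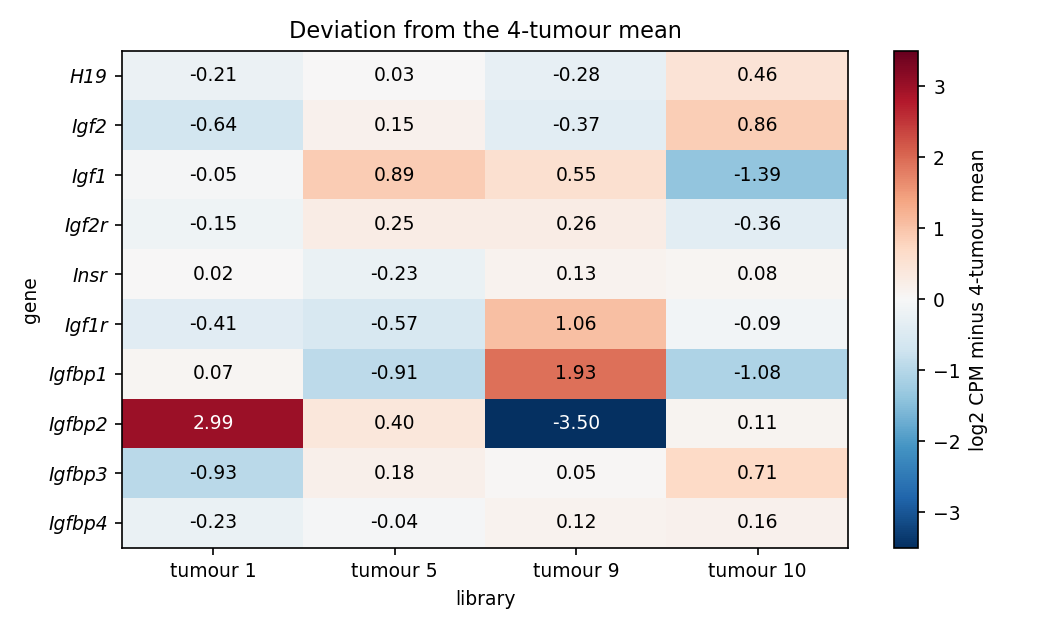
Log2 CPM of each gene in each tumour minus its mean over the 4 tumours, with red above and blue below that mean. H19 and Igf2 are positive and Igf1 is negative in tumour 10, Igfbp1 and Igf1r are positive in tumour 9, and Igfbp2 is positive in tumour 1 and negative in tumour 9.

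Downstream of the receptors, most of the signalling genes differed little between tumours. All 30 listed genes were expressed and differed beyond counting error, 8 with the 20% allowance (98.7% and 39.4% of all expressed genes). An SD of at least 1 was reached by 4 of the 30, against 16.6% of all expressed genes. The median SD was 0.27 against 0.45 over all expressed genes. Akt1, a kinase gene of the pathway, had 152, 179, 131 and 117 CPM in tumours 1, 5, 9 and 10 and was lowest in tumour 10. Grb10, an imprinted adaptor that restrains insulin and IGF1 receptor signalling, had 481, 391, 92.1 and 11.6 CPM, an SD of 2.48. Gab1, a docking protein gene, had 20.7, 14.8, 15.5 and 1.16 CPM. Irs1, an insulin and IGF1 receptor substrate gene that also had an SD of at least 1 and was named after its values were seen, had 29.5, 12.1, 10.3 and 4.82 CPM. Of the 30 genes 19 (63.3%) had their lowest value in tumour 10, against 32.4% of all expressed genes. These genes have long rows, with a median of 5041 bases against 2756, and long rows stood lower in tumour 10 over all genes. The part of row length in this count was not tested.

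Among the binding proteins Igfbp4 was nearly even between tumours, Igfbp1 and Igfbp2 varied widely, and Igfbp3 lay in between. Igfbp4, a secreted inhibitor of IGF action (NM_010517, plus strand of chromosome 11, 99041244 to 99054392), had 695, 791, 884 and 911 CPM in tumours 1, 5, 9 and 10, averaging 820.4 ± 98.0 CPM (SD, n = 4). It did not pass the test with the 20% allowance (adjusted p = 0.863, Poisson heterogeneity chi-square test over 13129 genes). Tumour 10 was highest by TMM and tumour 9 by total counts. Igfbp3, the main carrier of IGF in the blood (NM_008343, minus strand of chromosome 11, 7206086 to 7213923), had 34.2, 73.7, 67.6 and 107 CPM, lowest in tumour 1 and highest in tumour 10, and passed the test with the allowance (adjusted p = 0.0046, same test).

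Igfbp1, a secreted protein whose gene insulin represses in liver (NM_008341, plus strand of chromosome 11, 7197782 to 7202546), had 406, 206, 1473 and 182 CPM in tumours 1, 5, 9 and 10, averaging 567 ± 612 CPM (SD, n = 4). Tumour 9 was far above the others, by 8.07 times over tumour 10, and the spread passed the test with the 20% allowance (adjusted p = 1.8e-14, Poisson heterogeneity chi-square test over 13129 genes). Igfbp2, which binds IGF2 and is a fetal liver product (NM_008342, plus strand of chromosome 1, 72824503 to 72852474), had 150.4, 25.0, 1.64 and 20.4 CPM in tumours 1, 5, 9 and 10, averaging 49.4 ± 68.1 CPM (SD, n = 4), from 8609, 1069, 88 and 686 counts. It spanned 91.8 times, from tumour 1 to tumour 9, an SD of 2.67, above 98.0% of expressed genes, and passed the test with the 20% allowance (adjusted p = 9.0e-23, same test). Per kilobase, Igfbp2 stood over Igfbp3 by 8.10 times in tumour 1 and was 0.623, 0.0446 and 0.352 of it in tumours 5, 9 and 10.

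Around the binding proteins, Stc1, an inhibitor of the IGFBP-cleaving protease PAPPA, had 2.83, 4.79, 12.2 and 14.7 CPM in tumours 1, 5, 9 and 10. Igfbp5, another binding protein, had 6.92, 7.87, 12.0 and 2.29 CPM, lowest in tumour 10. Igfbp7, which binds IGF weakly, had 41.0, 41.0, 82.5 and 49.4 CPM, and the protease gene Htra1 had 2.15, 1.63, 4.002 and 3.03 CPM, both highest in tumour 9. Of the 10 listed genes 5 were expressed, and all 5 differed beyond counting error, as did 98.7% of all expressed genes. With the 20% allowance 2 of the 5 did, Stc1 and Igfbp5, against 39.4% of all expressed genes. The same 2 had an SD of at least 1, against 16.6% of all expressed genes.

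Igfbp1 is a textbook target of FOXO factors, which insulin signalling shuts out of the nucleus, and its promoter is printed for that reason (RefSeq, GRCm38.p6, chr11:7197537-7197836, plus strand, 5′ to 3′). The capitals mark CAAAACA and CAAAATA, searched on both strands.
Igfbp1 start: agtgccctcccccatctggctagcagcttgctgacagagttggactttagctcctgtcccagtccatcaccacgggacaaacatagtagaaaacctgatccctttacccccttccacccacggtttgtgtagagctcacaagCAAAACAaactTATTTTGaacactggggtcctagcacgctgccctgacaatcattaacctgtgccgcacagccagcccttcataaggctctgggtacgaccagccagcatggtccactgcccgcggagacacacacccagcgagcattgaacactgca
Both motifs were present, without overlap, as in 0.472% of the 32851 windows; CAAAACA alone was in 6.28% and CAAAATA in 4.36%. Foxo1 itself had 63.5, 67.3, 59.0 and 86.9 CPM in tumours 1, 5, 9 and 10, and its spread did not pass the test with the 20% allowance (adjusted p = 0.618, Poisson heterogeneity chi-square test over 13129 genes). The part of insulin or FOXO activity in the Igfbp1 levels was not tested. Of the other genes that insulin represses, Irs2, a receptor substrate gene named after its values were seen, had 34.9, 26.2, 40.0 and 17.3 CPM in tumours 1, 5, 9 and 10, highest in tumour 9 like Igfbp1. Pck1, the gluconeogenic enzyme, had 68.998, 4.97, 69.9 and 223 CPM, and Pdk4, which restrains glucose oxidation, had 19.1, 11.1, 7.13 and 70.3 CPM, both highest in tumour 10. Ppargc1a, a transcriptional coactivator named after its values were seen, had 15.7, 20.9, 4.09 and 6.57 CPM, highest in tumour 5. Of the 8 listed genes, Igfbp1 included, all were expressed and differed beyond counting error, 5 with the 20% allowance and 4 with an SD of at least 1, against 98.7%, 39.4% and 16.6% of all expressed genes. Tumour 9 was highest for 2 of the 8 and tumour 10 for 5, against 21.6% and 35.8% of all expressed genes.

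Of the genes known to act on Igf2 and H19, 7 of 12 were expressed and all 7 differed beyond counting error, as did 98.7% of all expressed genes. Lin28b, a fetal RNA-binding protein gene, had 34.7, 14.8 and 11.3 CPM in tumours 1, 5 and 10 and no count in tumour 9, where 3 counts would be 0.0558 CPM. Igf2bp1, which binds Igf2 mRNA, had 7.30 CPM in tumour 1 and at most 0.168 CPM in the others. Of the 7, only these 2 passed the test with the 20% allowance, against 39.4% of all expressed genes. They were also the only ones with an SD of at least 1, against 16.6% of all expressed genes. Igf2bp3, of the same family, had 123, 113, 107 and 150.2 CPM, highest in tumour 10. Trim28, a corepressor that keeps imprints, had 485, 439, 289 and 218 CPM, and Zfp568, a repressor of a placental Igf2 transcript in the mouse, had 118, 99.96, 99.0 and 50.7 CPM, both lowest in tumour 10. Of the 7 genes 4 (57.1%) had their lowest value in tumour 10, against 32.4% of all expressed genes. Their median row length was 5097 bases against 2756, and the part of row length in this count was not tested. Over all 6 lists, without the 10 genes themselves, 16 of 75 expressed genes had an SD of at least 1, against 16.6% of all expressed genes.

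The remaining marker lists are given for reference beside these levels. Endothelial markers summed to between 82.5 and 118 CPM and cholangiocyte markers to between 12.9 and 41.2 CPM. Adipocyte markers summed to between 3.69 and 25.7 CPM (Lep at 0 counts). Only 1 of these 4, Cidec, was above 3 counts in any tumour, so the sum is nearly all Cidec. T cell markers summed to at most 3.16 CPM and B cell markers to at most 1.12 CPM. The part of these cell types in the levels of the 10 genes was not tested.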

How the data were processed

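Poly-A RNA of 4 tumours was extracted with Trizol, treated with DNase and made into TruSeq libraries, per the labels' protocols. The submitters' processing notes name GRCm38 and FastQC 0.11.8. The sources used here do not give the aligner, the counting program or the use of strand.

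The authors' deposited counts are whole numbers per RefSeq transcript row, with 33984 rows in each table. The deposited FPKM, so named per the file headers, gave back the row lengths, and these were whole numbers (tolerance 0.01 bases) in 100% of the rows with reads. The deposited TPM, so named per the file headers, summed to 1000000 in each library and was used only to check the unit. Reads shared by isoforms were counted on each, so each gene was taken from 1 row.

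Counts were scaled by TMM (edgeR 4.0.16, R 4.3.3), with a prior count of 2 on the log2 scale. Genes averaging 1 CPM or more were called expressed. The Poisson heterogeneity chi-square test had 3 degrees of freedom and Benjamini-Hochberg adjustment over all expressed genes, at 0.05, and was tested on simulated data. An SD of log2 CPM of at least 1 was a rule of size without a test. Alternatives were total counts, DESeq2 1.42.0 size factors, a sum over rows, other filters, prior counts and noise models, and leaving out each tumour. The 10 genes and all lists were chosen with earlier results of these data known. Named were the 10 genes, every Igf2 row, the 5 genes most like H19 and Igf2, the 3 most abundant and 3 most variable expressed genes of each list, and the neighbours of the pair; some genes this rule names are not reported here. Only libraries of 1 group were available for comparison, so no test between conditions was made.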

Additional observations from a re-analysis of the deposited data

Results flagged for a closer look

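The ratio of Igf2 to Igf1 per kilobase in tumour 10 stood apart from the other tumours. Its log2 was 10.65 in tumour 10, where Igf2 was highest and Igf1 lowest, and the ratio was 1611 in tumour 10 against 223, 201 and 178 in tumours 1, 5 and 9. The gap to the nearest tumour took 0.896 of the whole range. This was 1 of 24 series of values checked for a sample far from the others, and chance marks about 1 in 20. Igf1 in tumour 10 rests on 356 counts. The Igf1 row has 7121 bases and the Igf2 row 4038, and long rows stood lower in tumour 10 over all genes. The part of row length in this ratio was not tested.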

How the results depend on the processing

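Total-count scaling, DESeq2 size factors, removal of duplicated counts and prior counts of 0.5 and 8 left every count of genes within 1.5 times its value. The mean log2 ratio of H19 to Igf2 per kilobase was 1.34 when rows were summed, since Igf2 has 3 rows that count the same reads, and 2.86 to 3.13 with 1 tumour left out. With a further 20% variation, 5178 genes in all and 6 of the 10 exceeded the expected spread. The number of genes with an SD of at least 1 was 3761 without a filter and 1269 with a mean of at least 5 CPM. At an SD of at least 0.5 it was 5728 in all, 6 of the 10 and 35 of the listed genes. Leaving out each tumour gave 12282 to 12694 genes beyond counting error in all and 9 to 10 of the 10. It gave 1507 to 2391 genes with an SD of at least 1, 2 to 3 of the 10, and 11 to 15 of the listed genes. Among the 10, leaving out a tumour ended the call beyond counting error for Igf1r (without tumour 9), and the SD of at least 1 for Igf1 (without tumour 5 or 10) and for Igfbp1 (without tumour 9). No paired analysis was possible because the labels give 1 group only. Depth limits Igf1r (105 to 412 counts) and Igfbp2 in tumour 9 (88 counts) most.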
